A study of Mus musculus with 18 samples.

Results

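A set of 10 genes of smooth muscle contraction and actin filaments was followed across cumulus cell cultures with and without oocytes and estrogen. They are the actins Acta2 and Actg2, the myosin light chain Myl9, the tropomyosins Tpm1 and Tpm2, the calponin family genes Cnn1, Cnn2 and Tagln, the thymosin Tmsb4x and the filamin-interacting gene Filip1l. The genes were chosen by name with earlier results of these data known, and every probe set annotated with exactly 1 of these symbols was taken. All 10 genes had a probe set, with 18 probe sets in all, of 34945 probe sets for 18193 genes that carried 1 symbol. The rule for describing them used the sign of the estrogen difference in each culture, so the estrogen differences of these probe sets are given as a description with no test.

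RNA came from cumulus cells of antral follicles of female mice and was measured on 18 Affymetrix mouse arrays, 3 per group. The groups were oocyte-free complexes with estrogen (E2 OOX) and without it (OOX), oocyte-free complexes cultured beside oocytes with estrogen (E2 OOX + Oocytes, the estrogen coculture) and without it (OOX + Oocytes, the coculture), and intact cumulus-oocyte complexes with estrogen (E2 COC) and without it (COC). The study asked how estrogen and oocytes act together on cumulus cell transcripts, per its title. Genotype, strain, age, the dose of estrogen and the length of culture are not given in the sources used here. The labels do not state whether replicate arrays stem from different mice or dishes, so p-values measure only the spread between these samples. For 1 array, E2 OOX replicate 1, the title names estrogen while the source name and the treatment label name oocyte-free complexes without it. The title was followed. In a principal component analysis of all fitted probe sets, the second component (14.6% of the variance) was -41.4 for this array. It was -24.7 and -28.5 for the other E2 OOX arrays and 5.44, 14.6 and 42.0 for the OOX arrays. By this component the array lay with E2 OOX, and the alternative that follows the source name places it among the OOX arrays. The RNA was amplified before hybridisation and measured in bulk, so fewer cells of a type and less RNA per cell cannot be told apart.

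Contractile filaments are built from actin with tropomyosin along it, and force comes from myosin that is switched on by phosphorylation of its regulatory light chain. Many genes of this machinery are transcribed through serum response factor (SRF), which binds CArG boxes with its partners of the myocardin family, and actin monomers in turn hold some of those partners back. In the ovary, smooth muscle actin is best known from the outer theca and the walls of vessels, while cumulus cells are granulosa-lineage cells that surround the oocyte and answer to its secreted factors.

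Promoter sequences from 250 bases before to 50 bases after the start were at hand from RefSeq (build GRCm38.p6) for 8 of the 10 genes, 9 sequences in all, with none listed for Actg2 and Tagln. The CArG box stood in 3 of the 9, those of Myl9, Cnn2 and the second listed start of Filip1l, and in 1.63% of 32851 mouse promoters of the same length. A looser form that allows 1 inner base to be G or C was found in 4 of the 9, with Acta2 added, against 9.98% of all promoters. The TEAD-type letters CATTCC were found in 2, Acta2 and Tpm1 (14.7% of all promoters), and the palindromic estrogen response element in 0 (0.07% of all). Both strands were searched, and every CArG box is also a match of the looser form. The 4 promoters with a CArG-type match are shown, with capitals marking the CArG-type matches and, in Acta2, the reverse complement of CATTCC. A match describes letters in a window and is not evidence of binding. They lie at chr19:34255324-34255623 on the minus strand (Acta2), chr2:156775214-156775513 (Myl9), chr10:79988350-79988649 (Cnn2) and chr16:57548992-57549291 (Filip1l, second start), the last 3 on the plus strand.
Acta2: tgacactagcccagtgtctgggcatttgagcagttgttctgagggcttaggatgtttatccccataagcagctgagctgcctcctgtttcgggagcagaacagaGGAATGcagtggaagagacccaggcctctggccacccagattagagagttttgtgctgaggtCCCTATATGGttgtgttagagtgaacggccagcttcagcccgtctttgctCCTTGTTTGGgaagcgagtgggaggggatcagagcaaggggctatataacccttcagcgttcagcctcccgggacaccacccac
Myl9: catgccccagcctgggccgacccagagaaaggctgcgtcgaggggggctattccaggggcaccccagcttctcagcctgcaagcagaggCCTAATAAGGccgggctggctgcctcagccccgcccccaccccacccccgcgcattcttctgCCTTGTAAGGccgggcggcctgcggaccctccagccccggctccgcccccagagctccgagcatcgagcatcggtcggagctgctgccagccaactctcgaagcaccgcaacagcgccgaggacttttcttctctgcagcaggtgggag
Cnn2: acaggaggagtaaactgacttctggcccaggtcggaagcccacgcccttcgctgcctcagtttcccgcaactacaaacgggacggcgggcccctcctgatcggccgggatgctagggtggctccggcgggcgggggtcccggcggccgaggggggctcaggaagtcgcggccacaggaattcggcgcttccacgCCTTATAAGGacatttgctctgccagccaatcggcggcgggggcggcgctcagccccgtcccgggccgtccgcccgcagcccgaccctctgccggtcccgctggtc
Filip1l: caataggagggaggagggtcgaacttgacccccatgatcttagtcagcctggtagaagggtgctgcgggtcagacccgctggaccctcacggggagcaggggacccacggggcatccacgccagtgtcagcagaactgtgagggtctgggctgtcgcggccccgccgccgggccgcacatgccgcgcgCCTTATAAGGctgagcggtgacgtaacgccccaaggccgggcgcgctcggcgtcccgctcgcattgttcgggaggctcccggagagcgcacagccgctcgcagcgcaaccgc

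The arrays were alike in level, with medians between 5.51 and 5.71 log2 units and no array that repeated the values of another. The deposited values are log2 RMA signals of single probe sets, so levels are compared only within a probe set. OOX replicate 3 stood apart, with the narrowest interquartile range (2.54) and a highest correlation of 0.966 with the other arrays of its group. By the names the labels give them, the arrays form 3 series, of which the first holds all COC, E2 COC and estrogen coculture arrays and no OOX array. Of 11 granulosa and cumulus markers, 0 lay below the array median on every array, and Foxl2, Inha and Amh lay above it on all 18, while Wt1 did so on 11. These markers moved too: 4 rose and 6 fell in OOX against COC, where limma called 12.3% of all genes higher and 13.5% lower. In E2 OOX against E2 COC 1 rose and 6 fell, where 8.34% of all genes were called higher and 11.1% lower. The steroid enzyme gene Hsd17b1 had differences of -4.24 in OOX against COC and -3.70 in E2 OOX against E2 COC (limma adjusted p = 6.25e-10 and 3.95e-09). The mean over the granulosa list ran from 9.52 to 9.88 in E2 OOX, 8.96 to 9.12 in OOX, 10.36 to 10.52 in estrogen cocultures, 9.75 to 9.96 in cocultures, 10.33 to 10.54 in E2 COC and 9.66 to 9.89 in COC, and its part in the results was not tested. Of 9 pericyte and vascular smooth muscle markers, 5 lay below the array median on every array, among them smooth muscle myosin Myh11 (4.15 to 4.82) and Rgs5 (4.96 to 5.44). In the same list Cspg4 (5.61 to 9.60), Pdgfrb (5.74 to 9.40) and Des (5.73 to 6.39) lay above it on all 18, and Notch3 on 16. The mean over that list ran from 5.18 to 5.57 in E2 OOX, 5.69 to 5.91 in OOX, 5.43 to 5.66 in estrogen cocultures, 5.78 to 5.85 in cocultures, 5.45 to 5.60 in E2 COC and 5.75 to 6.03 in COC. Of 11 theca and stroma markers, 5 lay below the array median on every array, Col1a1, Col1a2, Col3a1, Lum and Tcf21. Ptch1 and Nr2f2 lay above it on all 18, Pdgfra on 17, Gli1 on 12, Dcn on 6 and Cyp17a1 on 1.

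**Figure D1:**
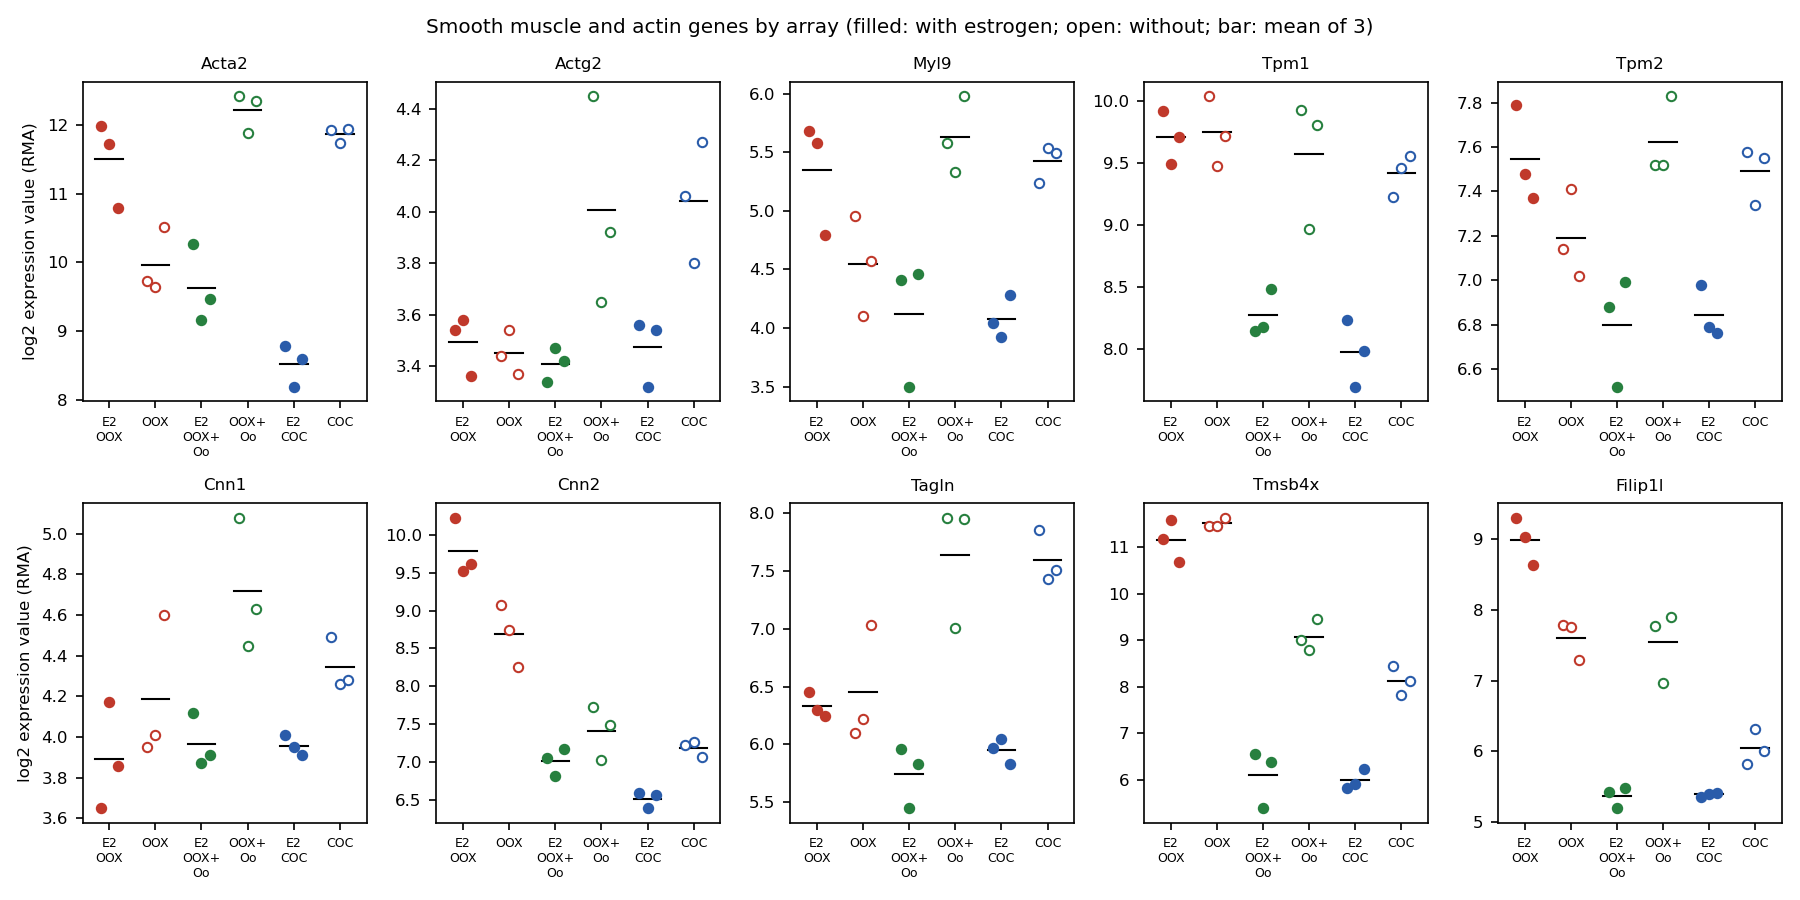
Log2 RMA value (y axis) of the brightest probe set of each of the 10 genes on all 18 arrays, by group along the x axis (Oo, oocytes). Filled points are arrays with estrogen, open points arrays without it, bars group means of 3; the y axes differ between panels. Acta2 is low in OOX and in both estrogen groups with oocytes, while Tmsb4x and Cnn2 are high in both oocyte-free groups.

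Acta2, smooth muscle alpha-actin, was the widest-ranging of the actins. Its bright probe set read 11.99, 11.72 and 10.79 in E2 OOX, against 9.73, 9.64 and 10.51 in OOX. With oocytes beside the complexes the order turned round, with 10.27, 9.16 and 9.46 in estrogen cocultures, against 12.42, 11.88 and 12.35 in cocultures. Intact complexes gave 8.78, 8.19 and 8.60 in E2 COC, against 11.92, 11.74 and 11.94 in COC. In each of the 3 cultures the arrays with and without estrogen did not overlap, and the estrogen arrays were the high ones in oocyte-free complexes and the low ones in the other cultures. By mean, cocultures (12.22 ± 0.294, SD, n = 3), COC (11.87 ± 0.110) and E2 OOX (11.50 ± 0.630) came first with overlapping arrays, then OOX (9.96 ± 0.478) and estrogen cocultures (9.63 ± 0.574), also overlapping, and E2 COC (8.52 ± 0.302) stood alone at the bottom.

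Taking the oocyte out lowered Acta2 where no estrogen was added and raised it where estrogen was present. OOX lay 3.75-fold below COC (log2 difference -1.91 ± 0.319, SE of the fit; limma adjusted p = 0.000335). E2 OOX lay 7.87-fold above E2 COC (2.98 ± 0.319; limma adjusted p = 5.46e-06). Adding oocytes back gave the opposite signs: cocultures were 4.78-fold above OOX (2.26 ± 0.319; limma adjusted p = 9.07e-05) and estrogen cocultures 3.66-fold below E2 OOX (-1.87 ± 0.319; limma adjusted p = 0.00069). The estrogen differences, which the rule used, were 1.54 in oocyte-free complexes, -2.59 in cocultures and -3.34 in intact complexes. That the oocyte comparisons differ with and without estrogen is the same arithmetic as this difference of signs and is no separate result. When a term for array series was added, the fall of Acta2 in OOX was not called (limma adjusted p = 0.0607), and with the source name followed for the disputed array the fall in estrogen cocultures was not called (-1.62; limma adjusted p = 0.0625). The estrogen difference in oocyte-free complexes was 1.10 within array series 3 (1 array against 2), 1.02 with the series as a term and 0.79 with the source name followed. A pair of further Acta2 probe sets, 1456658_at and 1444105_at, lay below the array median on every array and were not called in any oocyte comparison, with differences from -0.17 to 0.23. Actin genes are closely alike in sequence, and binding of other actin transcripts to these probes was not tested.

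Actg2, the gamma actin of enteric smooth muscle, was dim throughout. It read 3.54, 3.58 and 3.36 in E2 OOX, against 3.44, 3.54 and 3.37 in OOX, then 3.34, 3.47 and 3.42 in estrogen cocultures, against 4.45, 3.65 and 3.92 in cocultures. Its values were 3.56, 3.32 and 3.54 in E2 COC, against 4.06, 3.80 and 4.27 in COC. Every array of cocultures and COC lay above every array of the other 4 groups, and all 18 arrays were below the array median. Actg2 fell in OOX against COC (-0.59 ± 0.169; limma adjusted p = 0.017) and rose in cocultures against OOX (0.56 ± 0.169; limma adjusted p = 0.0289), and was not called with estrogen (0.02 and -0.08). The fall was not called without COC replicate 3 (-0.48; limma adjusted p = 0.0859). Leaving out OOX replicate 1, OOX replicate 3, coculture replicate 1 or coculture replicate 3 ended the rise of Actg2 (limma adjusted p = 0.0626, 0.07, 0.156 and 0.0529). With a term for array series neither Actg2 call held (limma adjusted p = 0.508 and 0.207), nor did the rise in a fit of the 2 groups alone (limma adjusted p = 0.16).

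Myl9, the regulatory light chain of smooth muscle myosin, followed Acta2 at a low level, above the array median on 3 of the 18 arrays. It read 5.68, 5.58 and 4.79 in E2 OOX, against 4.96, 4.10 and 4.57 in OOX. Estrogen cocultures gave 4.41, 3.50 and 4.46, against 5.58, 5.33 and 5.98 in cocultures, and E2 COC gave 4.04, 3.92 and 4.28, against 5.24, 5.54 and 5.49 in COC. The estrogen arrays lay below the others without overlap in intact complexes and cocultures, and overlapped in oocyte-free complexes, where E2 OOX replicate 3 fell among the OOX arrays. Myl9 fell in OOX against COC (-0.88 ± 0.283; limma adjusted p = 0.0332) and rose in E2 OOX against E2 COC (1.27 ± 0.283; limma adjusted p = 0.00452). It rose in cocultures against OOX (1.09 ± 0.283; limma adjusted p = 0.0121) and fell in estrogen cocultures against E2 OOX (-1.23 ± 0.283; limma adjusted p = 0.00736). The fall of Myl9 in OOX was lost without COC replicate 2 or 3 or without OOX replicate 2 or 3 (limma adjusted p = 0.0974, 0.0882, 0.145 and 0.0618), and with the array series as a term it was -0.21 (limma adjusted p = 0.79). The rise in cocultures was lost without OOX replicate 2 or coculture replicate 3 (limma adjusted p = 0.0655 and 0.0673) and with the series term (limma adjusted p = 0.242). A fit of the 2 groups alone did not call the fall of Myl9 in estrogen cocultures (limma adjusted p = 0.0555). With the source name followed, Myl9 was called in none of the 4 (limma adjusted p = 0.226, 0.069, 0.109 and 0.0954 in the order given).

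Tpm1, a tropomyosin that lies along the actin filament, was bright and had a different profile. Probe set 1423721_at read 9.92, 9.49 and 9.71 in E2 OOX, against 10.04, 9.48 and 9.72 in OOX. It read 8.15, 8.18 and 8.49 in estrogen cocultures, against 9.93, 8.97 and 9.81 in cocultures, and 8.24, 7.70 and 7.99 in E2 COC, against 9.23, 9.46 and 9.56 in COC. The low arrays were those with both estrogen and oocytes, and the other 4 groups overlapped. Tpm1 rose 3.32-fold in E2 OOX against E2 COC (1.73 ± 0.226; limma adjusted p = 4.21e-05) and fell 2.70-fold in estrogen cocultures against E2 OOX (-1.43 ± 0.226; limma adjusted p = 0.000338). Without estrogen the same comparisons of Tpm1 gave 0.33 and -0.18 (limma adjusted p = 0.341 and 0.667). A second bright Tpm1 probe set, 1423049_a_at, read 9.68, 9.76 and 9.71 in E2 OOX, against 9.30, 9.03 and 9.22 in OOX, a gap of 0.53 that the first probe set did not show (-0.04). With oocytes it read 7.61 to 7.82 in estrogen cocultures, against 8.94 to 9.49 in cocultures. The tropomyosin genes give several transcripts, and which of them each probe set reads was not tested. Of the other Tpm1 probe sets, 1456623_at was called in the same directions in both oocyte comparisons with estrogen (1.76 and -1.47). Probe set 1447713_at of Tpm1, below the array median on every array, was called in no oocyte comparison. The fall of 1456623_at in estrogen cocultures was not called without E2 OOX replicate 1 or 2 or estrogen coculture replicate 1 (limma adjusted p of this Tpm1 probe set 0.0667, 0.0568 and 0.0777), nor with the source name followed (0.0912).

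Tpm2, the other tropomyosin, had the signs of Acta2 with smaller steps. Its brightest probe set was called in the oocyte comparisons only with estrogen, and its E2 OOX and OOX arrays overlapped. Probe set 1419738_a_at read 7.79, 7.48 and 7.37 in E2 OOX, against 7.14, 7.41 and 7.02 in OOX. It read 6.88, 6.52 and 6.99 in estrogen cocultures, against 7.52, 7.52 and 7.83 in cocultures, and 6.98, 6.79 and 6.76 in E2 COC, against 7.58, 7.34 and 7.55 in COC. Arrays with estrogen and oocytes together were below all others. Tpm2 rose in E2 OOX against E2 COC (0.70 ± 0.155; limma adjusted p = 0.00416) and fell in estrogen cocultures against E2 OOX (-0.75 ± 0.155; limma adjusted p = 0.00329). Without estrogen its differences were -0.30 in OOX and 0.43 in cocultures (limma adjusted p = 0.192 and 0.0632). Probe set 1425028_a_at of Tpm2 was called in all 4 of these comparisons, with -0.51, 0.81, 0.56 and -0.81 in the order OOX against COC, E2 OOX against E2 COC, coculture against OOX and estrogen coculture against E2 OOX. Its limma adjusted p in OOX against COC was 0.0476, and 16 of 27 alternatives for this Tpm2 probe set did not call it (adjusted p from 0.0188 to 0.748). The Tpm2 rise of this probe set in cocultures was not called without OOX replicate 1 or 3 or coculture replicate 1 or 3 (limma adjusted p = 0.113, 0.0561, 0.105 and 0.197), with the series term (0.289), in a fit of the 2 groups alone (0.157) or with the source name followed (0.28). With the source name followed, neither of these Tpm2 probe sets was called in the oocyte comparisons with estrogen (limma adjusted p from 0.0608 to 0.094). The remaining Tpm2 probe sets, 1419739_at and 1449577_x_at, were called in no oocyte comparison.

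Cnn1, smooth muscle calponin, stayed between 3.65 and 5.08 and was called in no oocyte comparison. It read 3.65, 4.17 and 3.86 in E2 OOX, against 3.95, 4.01 and 4.60 in OOX. It read 4.12, 3.87 and 3.91 in estrogen cocultures, against 5.08, 4.45 and 4.63 in cocultures, while E2 COC gave 4.01, 3.95 and 3.91, against 4.49, 4.26 and 4.28 in COC. The nearest to a call was cocultures against OOX (0.53 ± 0.186; limma adjusted p = 0.0572), and 8 of 26 alternatives called Cnn1 there, among them those without OOX replicate 3 (0.74; limma adjusted p = 0.00688) and without coculture replicate 2 (0.67; limma adjusted p = 0.0302). Cocultures had the highest mean, and OOX replicate 3 lay among them.

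Cnn2, a calponin also found outside muscle, was high where the oocyte was missing. It read 10.23, 9.53 and 9.61 in E2 OOX, against 9.07, 8.75 and 8.25 in OOX. It read 7.05, 6.82 and 7.17 in estrogen cocultures, against 7.73, 7.02 and 7.49 in cocultures, and 6.59, 6.39 and 6.56 in E2 COC, against 7.22, 7.26 and 7.06 in COC. All 6 oocyte-free arrays were above all 12 arrays with oocytes, and the estrogen arrays were the high ones in the oocyte-free pair and the low ones in intact complexes. Cnn2 rose 2.85-fold in OOX against COC (1.51 ± 0.220; limma adjusted p = 9.37e-05) and 9.69-fold in E2 OOX against E2 COC (3.28 ± 0.220; limma adjusted p = 3.86e-08). Added oocytes lowered it 2.42-fold without estrogen (-1.28 ± 0.220; limma adjusted p = 0.000547) and 6.85-fold with estrogen (-2.78 ± 0.220; limma adjusted p = 3.02e-07). The 4 calls of Cnn2 held with the array series as a term.

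Tagln, transgelin or SM22-alpha, an actin-binding relative of the calponins, stood out in arrays with oocytes and no estrogen. It read 6.45, 6.30 and 6.25 in E2 OOX, against 6.10, 6.22 and 7.03 in OOX. It read 5.96, 5.45 and 5.83 in estrogen cocultures, against 7.96, 7.01 and 7.95 in cocultures, and 5.97, 6.05 and 5.83 in E2 COC, against 7.85, 7.43 and 7.51 in COC. Unlike Acta2 the oocyte-free groups overlapped, and OOX replicate 3, the array that stood apart, was as high as coculture replicate 2. Tagln fell in OOX against COC (-1.15 ± 0.254; limma adjusted p = 0.00331) and rose in cocultures against OOX (1.19 ± 0.254; limma adjusted p = 0.00313). With estrogen its differences were 0.38 and -0.59 (limma adjusted p = 0.381 and 0.161). With the array series as a term, neither call of Tagln held (-0.56 and 0.73; limma adjusted p = 0.321 and 0.109), and within series 2 the difference of 1 coculture array against 1 OOX array was -0.02. The fall in estrogen cocultures was then called (-0.82; limma adjusted p = 0.0326). In a fit of the 2 groups alone the rise of Tagln in cocultures was not (limma adjusted p = 0.0579).

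Tmsb4x, thymosin beta-4, which binds actin monomers and keeps them from filaments, showed the widest oocyte effect of the 10 genes. It read 11.18, 11.58 and 10.69 in E2 OOX, against 11.45, 11.46 and 11.64 in OOX. It read 6.55, 5.39 and 6.38 in estrogen cocultures, against 9.00, 8.79 and 9.45 in cocultures, and 5.83, 5.91 and 6.24 in E2 COC, against 8.45, 7.83 and 8.12 in COC. The order was oocyte-free arrays, then cocultures, then COC, then both groups with oocytes and estrogen, and only the last pair and the oocyte-free pair overlapped. Tmsb4x rose 10.4-fold in OOX against COC (3.38 ± 0.279; limma adjusted p = 2.54e-07) and 35.7-fold in E2 OOX against E2 COC (5.16 ± 0.279; limma adjusted p = 3.93e-09). Added oocytes lowered it 5.41-fold without estrogen (-2.44 ± 0.279; limma adjusted p = 1.1e-05) and 33.0-fold with estrogen (-5.04 ± 0.279; limma adjusted p = 5.71e-09).

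Filip1l, a gene for a filamin-interacting protein, was high in E2 OOX. It read 9.30, 9.02 and 8.63 in E2 OOX, against 7.78, 7.75 and 7.29 in OOX. It read 5.43, 5.20 and 5.49 in estrogen cocultures, against 7.77, 6.97 and 7.90 in cocultures, and 5.36, 5.40 and 5.42 in E2 COC, against 5.82, 6.31 and 6.01 in COC. Cocultures overlapped OOX and stood above COC without overlap, and both groups with oocytes and estrogen were the lowest. Filip1l rose 2.95-fold in OOX against COC (1.56 ± 0.224; limma adjusted p = 8.36e-05) and 12.0-fold in E2 OOX against E2 COC (3.59 ± 0.224; limma adjusted p = 1.74e-08). Added oocytes lowered Filip1l 12.2-fold with estrogen (-3.61 ± 0.224; limma adjusted p = 2.12e-08), and without estrogen the difference was -0.06 (limma adjusted p = 0.898).

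**Figure D2:**
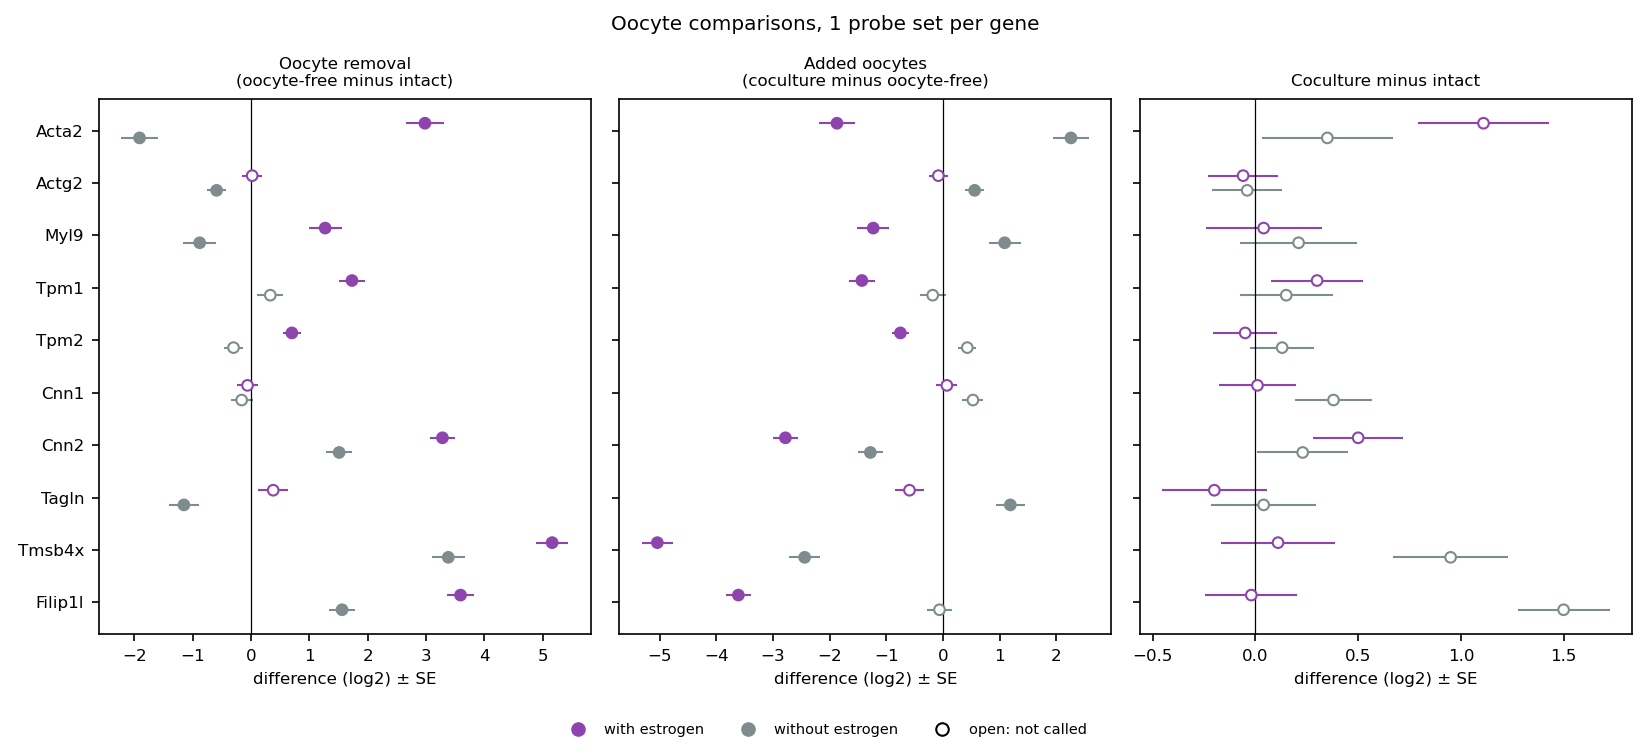
Log2 difference ± SE of the fit (x axis) in the oocyte comparisons for the brightest probe set of each gene (rows), with estrogen in purple and without in grey; filled points were called at an adjusted p under 0.05. Acta2, Myl9 and Tpm2 lie on opposite sides of 0 with and without estrogen in the first panels, Cnn2 and Tmsb4x on the same side, and no point of the last panel is filled.

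Counted over the 18 probe sets, oocyte removal without estrogen raised 3 and lowered 5, where limma called 22.9% of all probe sets (10.8% higher and 12.1% lower). With estrogen it raised 10 and lowered 0, against 16.8% of all probe sets (7.63% higher and 9.18% lower). Added oocytes without estrogen raised 5 and lowered 2, against 18.9% of all (10.8% higher and 8.09% lower), and with estrogen raised 0 and lowered 10, against 13.2% of all (7.38% higher and 5.81% lower). The median difference of the 18 was -0.05, 0.76, -0.01 and -0.78 in these 4 comparisons, and that of all probe sets 0.03, -0.02, -0.02 and 0.00. The comparisons of removal and addition share their oocyte-free arrays. All 5 falls in OOX were lost with the array series as a term, while the 3 rises of Cnn2, Tmsb4x and Filip1l held.

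Cocultures and intact complexes were then compared, which asks whether oocytes beside the complexes give the level of oocytes inside them. None of the 18 probe sets was called by limma, without or with estrogen (0 of all 34945 in both, so 0% called), and 2 of the 18 had an unadjusted p under 0.05 in each. Across all probe sets, 1702 and 767 had an unadjusted p under 0.05. With the replicate number as a block, which arrays of estrogen cocultures and E2 COC share, limma called 3 of all probe sets between these groups and 0 of the 18. The largest gap was that of Filip1l without estrogen, 2.83-fold higher in cocultures (1.50 ± 0.224; limma adjusted p = 0.119), with no overlap of arrays. Over its alternatives Filip1l passed in 7, among them without OOX replicate 3 (limma adjusted p = 0.0425), without coculture replicate 2 (1.79; limma adjusted p = 0.00654) and with the array series as a term (1.80; limma adjusted p = 9.18e-05). Tmsb4x was 1.93-fold higher in cocultures (0.95 ± 0.279; limma adjusted p = 0.705), and Acta2 2.15-fold higher in estrogen cocultures than in E2 COC (1.11 ± 0.319; limma adjusted p = 1), also without overlap.

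The rule used the signs of the estrogen differences, so no test was made of them. In oocyte-free complexes 11 of the 18 probe sets had a positive and 7 a negative difference, and 5 did not overlap, all higher with estrogen (8.00% of all probe sets were higher without overlap and 12.1% lower). In cocultures 17 were negative and 1 positive, with 13 lower without overlap, against 13.2% of all probe sets lower and 8.00% higher. In intact complexes 18 were negative, with 15 lower without overlap, against 14.8% of all probe sets lower and 11.4% higher. Over all probe sets limma called 5.21% in oocyte-free complexes, 2.34% in cocultures and 2.48% in intact complexes. Near 0 in oocyte-free complexes lay Tpm1 1423721_at (-0.04), Actg2 (0.04) and Tagln (-0.12), so that their signs there are within 1 SE. The 5 without overlap were Acta2 (1.54 ± 0.319), Filip1l (1.38 ± 0.224), Cnn2 (1.10 ± 0.220), Tpm1 1423049_a_at (0.53 ± 0.154) and Tpm2 1425028_a_at (0.51 ± 0.178). Within array series 3 they were 1.10, 0.87, 0.70, 0.55 and 0.44, for 1 E2 OOX array against 2 OOX arrays. With the source name followed for the disputed array, Acta2 and Filip1l both came to 0.79 and Cnn2 to 0.49. In cocultures the lowest difference was that of Tmsb4x (-2.97 ± 0.279) and in intact complexes that of Acta2 (-3.34 ± 0.319), while Filip1l gave -2.17 in cocultures and -0.65 in intact complexes.

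**Figure D3:**
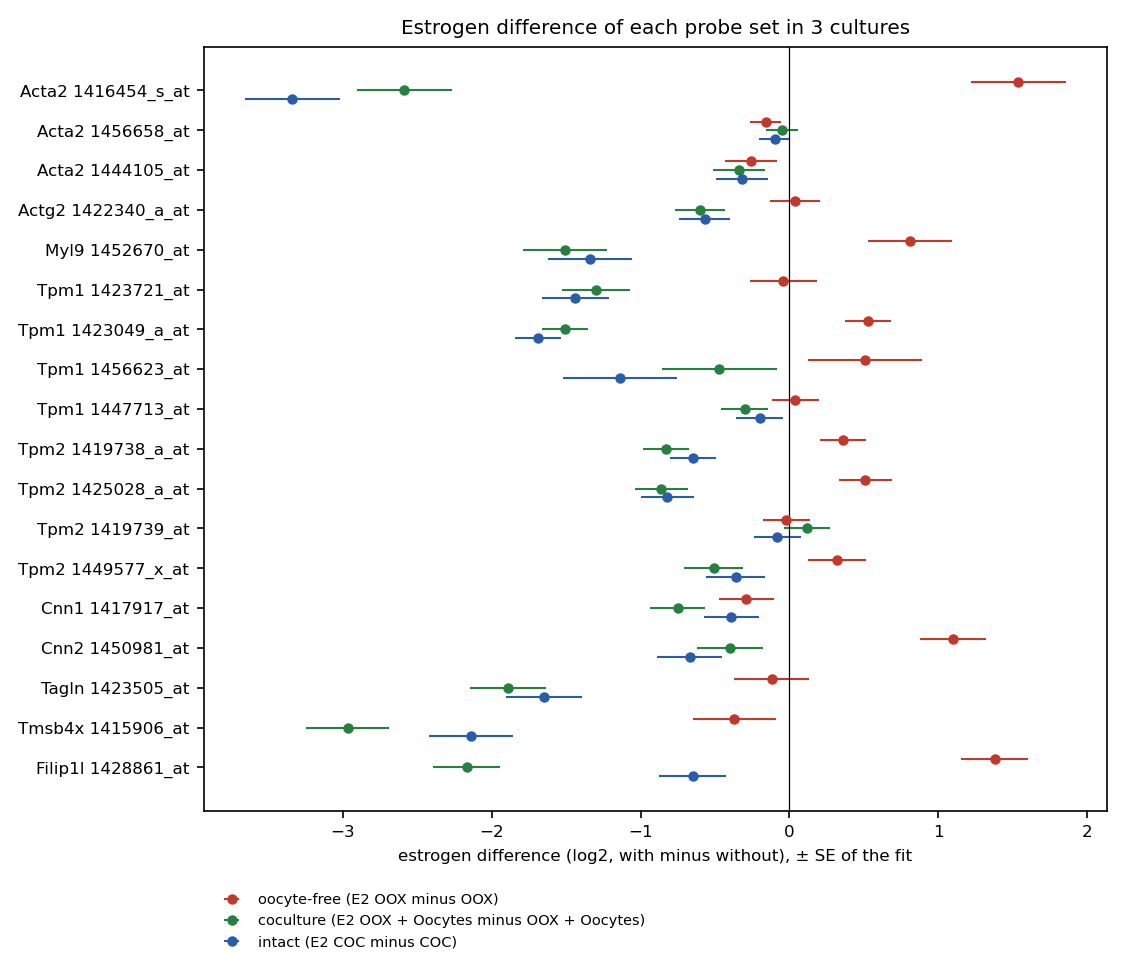
Estrogen difference of log2 values, with minus without, ± SE of the fit (x axis) for all 18 probe sets (rows), in oocyte-free complexes (red), cocultures (green) and intact complexes (blue). Acta2 1416454_s_at runs from -3.34 in intact complexes to 1.54 in oocyte-free complexes, and the dim Tpm2 1419739_at lies near 0 in all 3.

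Over the 18 arrays the genes fell into profiles that the arrays of each group share, so the correlations describe the group means more than single arrays. Acta2 went with Myl9 (Pearson r = 0.916), Tpm2 (0.863) and Tagln (0.814), and Tagln with Cnn1 (0.824) and Actg2 (0.817). Cnn2 went with Filip1l (0.911) and Tmsb4x (0.871), and Tmsb4x with Filip1l (0.899) and Tpm1 (0.858). Pairs from different sets ranged widely, with 0.732 for Acta2 and Tpm1, 0.552 for Acta2 and Filip1l, 0.0267 for Tmsb4x and Actg2 and -0.0246 for Cnn2 and Tagln. After group means were taken away, r was 0.630 for Acta2 and Myl9, 0.646 for Acta2 and Tagln, 0.777 for Cnn2 and Filip1l and 0.164 for Cnn2 and Tmsb4x. Pairs within a set also included 0.350 for Acta2 and Tpm2 and 0.335 for Tmsb4x and Filip1l. Pairs from different sets then gave 0.185 for Acta2 and Cnn2, 0.656 for Acta2 and Tmsb4x and 0.705 for Myl9 and Tmsb4x. Among other genes, those nearest to Acta2 were Camk2n1 (r = 0.925), the myosin light chain kinase Mylk (0.921) and Basp1 (0.896), over 18 arrays. Tagln was nearest to Hspb1 (0.959), Pdzrn3 (0.955) and Spats2l (0.933). Tmsb4x was nearest to caldesmon, Cald1 (0.981), Egr1 (0.972) and Fgd5 (0.968).

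**Figure D4:**
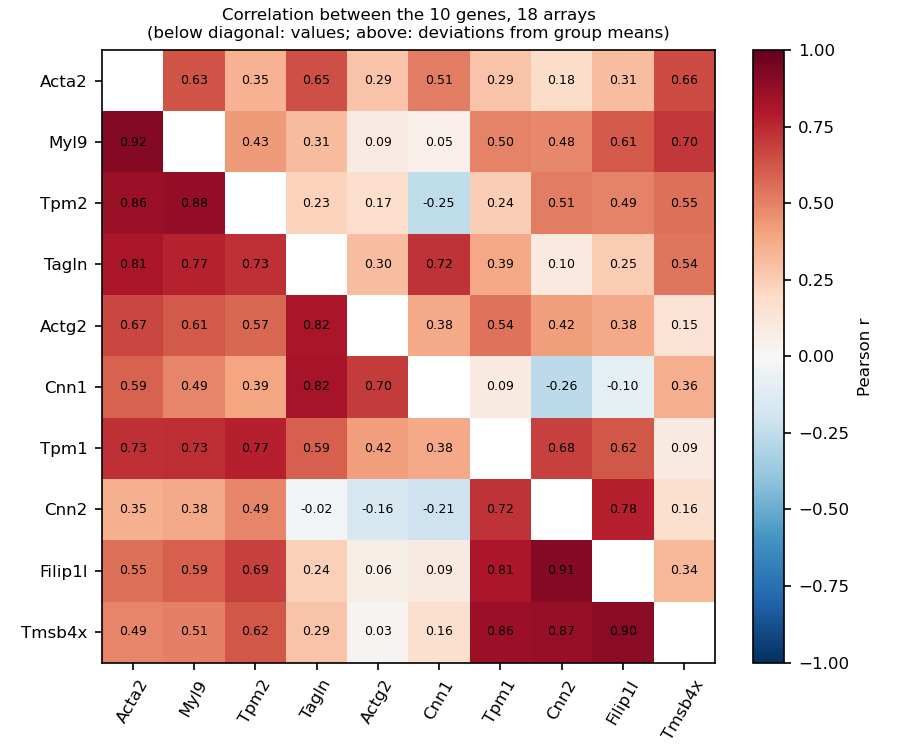
Pearson correlation between the 10 genes over 18 arrays, below the diagonal for the log2 values and above it for deviations from the group means. Below the diagonal, Acta2, Myl9, Tpm2 and Tagln form a block with r from 0.729 to 0.916, and Cnn2, Filip1l and Tmsb4x another with r from 0.871 to 0.911.

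The other smooth muscle genes on the array, 14 by their brightest probe set, were split in the same comparisons. In OOX against COC 2 rose and 4 fell, where limma called 25.8% of all genes counted this way (12.3% higher and 13.5% lower). Caldesmon (Cald1), which restrains actomyosin, rose by 2.27 ± 0.381 (limma adjusted p = 0.000342) and the myosin phosphatase inhibitor gene Ppp1r14a by 1.68 ± 0.230 (limma adjusted p = 5.09e-05). Smoothelin (Smtn), a cytoskeletal protein of contractile smooth muscle, fell by 1.71 ± 0.277 (limma adjusted p = 0.000253). In E2 OOX against E2 COC 3 rose and 2 fell, against 19.5% of all genes (8.34% higher and 11.1% lower). Cald1 rose there by 4.31 ± 0.381 (limma adjusted p = 7.01e-07) and the LIM-domain gene Fhl1 by 1.74 ± 0.175 (limma adjusted p = 2.72e-06), and Ppp1r14a fell by 1.72 ± 0.230 (limma adjusted p = 5.3e-05). Added oocytes raised 4 and lowered 2 without estrogen, where 21.7% of all genes were called (12.6% higher and 9.08% lower). They raised 1 and lowered 3 with it, where 15.4% were called (8.88% higher and 6.54% lower). Mylk, which phosphorylates the light chain, rose by 1.43 ± 0.247 in cocultures against OOX (limma adjusted p = 0.000565).

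The estrogen comparisons were tested for these lists, whose genes are outside the rule although chosen with earlier results known. Of the 14 smooth muscle genes 1 rose and 2 fell in intact complexes (3.17% of all genes called), 1 rose and 3 fell in cocultures (2.91%) and 1 rose in oocyte-free complexes (6.10%). Mylk read 8.02, 8.03 and 7.91 in E2 COC, against 10.32, 10.40 and 10.39 in COC, and fell by 2.38 ± 0.247 (limma adjusted p = 2.95e-05). In E2 OOX it read 9.74, 9.07 and 9.30, against 8.97, 9.06 and 9.87 in OOX, and its difference was 0.07 (limma adjusted p = 0.881). Cald1 fell by 2.14 ± 0.381 in E2 COC against COC (limma adjusted p = 0.00417), and Ppp1r14a rose by 2.95 ± 0.230 (limma adjusted p = 2.16e-06). The single smooth muscle gene called in oocyte-free complexes was Fhl1, which rose by 0.88 ± 0.175 (limma adjusted p = 0.00783) and was not called with the source name followed (0.60; limma adjusted p = 0.739) or with the series term (limma adjusted p = 0.0813).

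Myocardin (Myocd), the SRF partner that drives smooth muscle genes, was bright in every group and lowest in OOX. It read 10.51, 10.77 and 9.92 in E2 OOX, against 8.95, 9.31 and 8.76 in OOX. It read 10.53, 10.85 and 10.52 in estrogen cocultures, against 11.30, 11.14 and 10.91 in cocultures, and 9.98, 10.38 and 10.11 in E2 COC, against 11.23, 10.80 and 11.25 in COC. No other array was as low as those of OOX, and the arrays with and without estrogen overlapped in no culture. Myocd fell in OOX against COC by 2.09 ± 0.209 (limma adjusted p = 1.98e-06) and rose in cocultures against OOX by 2.11 ± 0.209 (limma adjusted p = 2.34e-06). With estrogen, removal and addition gave 0.24 and 0.23 for Myocd (limma adjusted p = 0.53 and 0.586). In E2 OOX against OOX it rose by 1.39 ± 0.209 (limma adjusted p = 0.00091), and in E2 COC against COC it fell by 0.94 ± 0.209 (limma adjusted p = 0.022). With the source name followed for the disputed array, these Myocd differences were 0.96 and -0.94 and were not called (limma adjusted p = 0.686 and 0.256), and the fall was also lost without COC replicate 1 or 3 or E2 COC replicate 1 or 3 (limma adjusted p = 0.107, 0.096, 0.103 and 0.0979).

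**Figure D5:**
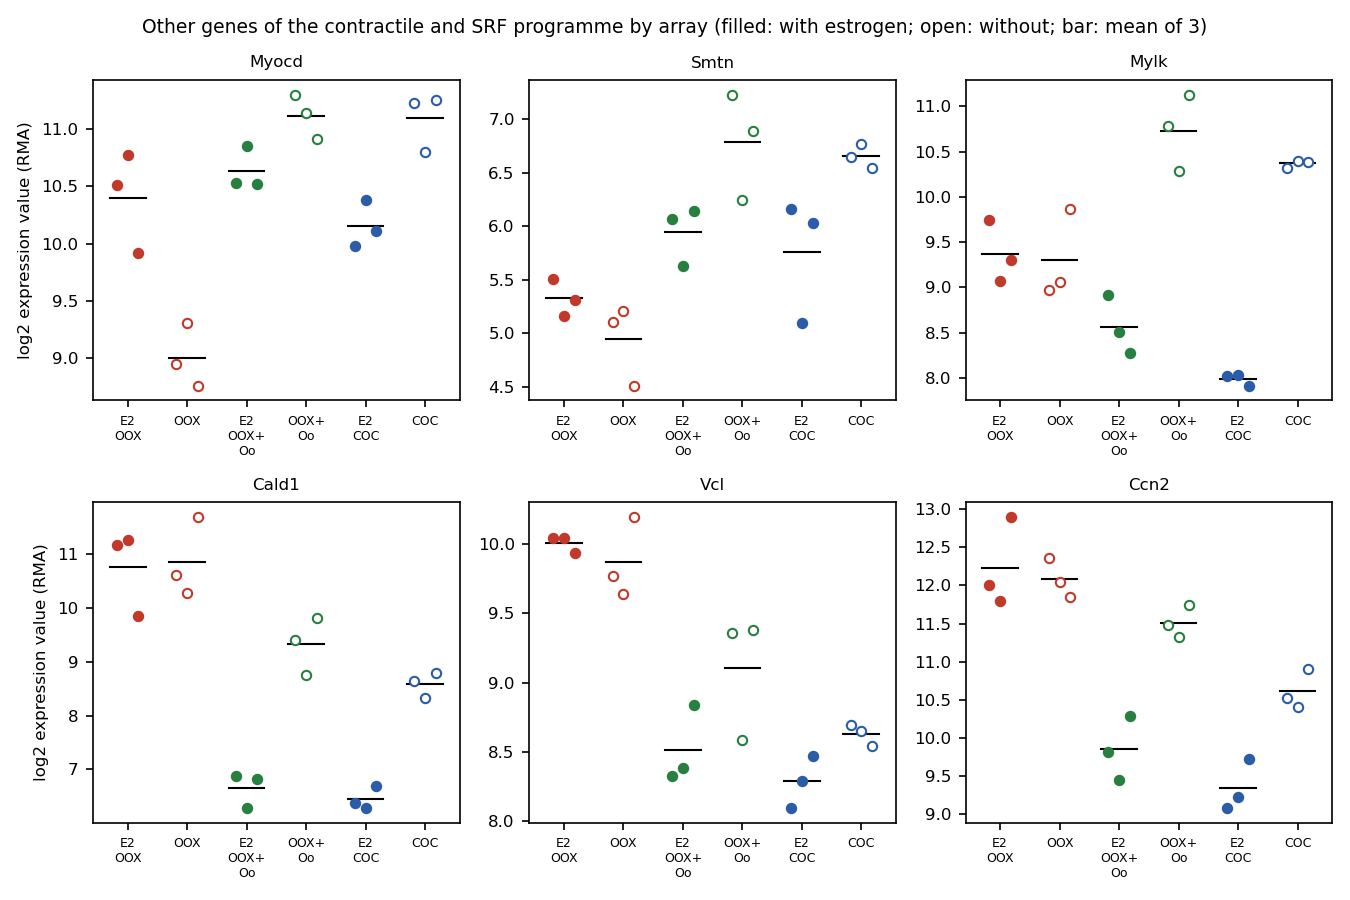
Log2 RMA value (y axis) on each array for 6 genes of the pathway lists (Myocd, Smtn, Mylk, Cald1, Vcl and Ccn2), by group along the x axis. Filled points are arrays with estrogen, bars group means of 3. Myocd is lowest in OOX, Smtn has its lowest means in both oocyte-free groups, Mylk is lowest in E2 COC, and Cald1 is lowest where estrogen and oocytes are both present.

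The SRF coactivator genes Mrtfb and Mrtfa rose in OOX against COC by 1.64 ± 0.229 and 1.37 ± 0.314 (limma adjusted p = 6.52e-05 and 0.0042), the reverse of Myocd. Ppp1r12a, the targeting subunit of myosin phosphatase, rose in E2 OOX against E2 COC by 1.03 ± 0.199 (limma adjusted p = 0.00154). Among 17 stress fibre and focal adhesion genes, 4 rose and 5 fell in OOX (12.3% of all genes called higher and 13.5% lower), and 7 rose and 0 fell in E2 OOX (8.34% and 11.1%). Vinculin (Vcl) rose in both, by 1.24 ± 0.204 and 1.73 ± 0.204 (limma adjusted p = 0.000277 and 1.47e-05), while the actin-bundling Actn1 and profilin Pfn1 fell in OOX (-1.17 ± 0.194 and -1.25 ± 0.195; limma adjusted p = 0.000302 and 0.000172). With estrogen, 1 of the 17 was called in oocyte-free complexes, where 6.10% of all genes were called. None of the 17 was called in intact complexes (3.17% of all genes) or cocultures (2.91%). The gene called was zyxin (Zyx), which rose in oocyte-free complexes by 0.66 ± 0.178 (limma adjusted p = 0.0419). That call of Zyx was lost in most alternatives, with the source name followed (limma adjusted p = 0.796) and without OOX replicate 3 (limma adjusted p = 0.121) among them. Of 7 YAP and SRF target genes outside the cytoskeleton, 3 rose in OOX and 5 in E2 OOX, where 12.3% and 8.34% of all genes were called higher, and 0 fell (13.5% and 11.1% called lower). The matricellular gene Ccn2 rose in E2 OOX by 2.89 ± 0.273 (limma adjusted p = 1.39e-06), and with estrogen it fell by 1.28 ± 0.273 in intact complexes (limma adjusted p = 0.0164) and fell by 1.66 ± 0.273 in cocultures (limma adjusted p = 0.00227). The Ccn2 fall in intact complexes was not called without COC replicate 1 or 3 or E2 COC replicate 1 or 2 (limma adjusted p = 0.0507, 0.0833, 0.0843 and 0.0737).

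Relatives of the 10 genes were counted in the same way. The 14 were other actin, tropomyosin, calponin, transgelin, myosin light chain, thymosin and filamin-interacting genes. Of them 2 rose and 2 fell in OOX against COC, and 2 rose in E2 OOX against E2 COC, where 25.8% and 19.5% of all genes were called. Myl6, the essential light chain of nonmuscle and smooth muscle myosin, rose by 0.78 ± 0.143 and 1.61 ± 0.143 in these comparisons (limma adjusted p = 0.000754 and 7.67e-07). With estrogen Tagln2, a transgelin found outside muscle, fell in intact complexes (-1.20 ± 0.215), cocultures (-1.76 ± 0.215) and oocyte-free complexes (-0.98 ± 0.215) (limma adjusted p = 0.00448, 0.000162 and 0.0148). The Tagln2 fall in oocyte-free complexes was not called without E2 OOX replicate 1 or 2 or OOX replicate 2 (limma adjusted p = 0.0762, 0.0608 and 0.0628), with the series term (0.0769), in a fit of the 2 groups alone (0.154) or with the source name followed (-0.63; 0.756). The source name also ended the Tagln2 call in intact complexes (limma adjusted p = 0.0506).

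Some markers of other cell types moved with some of these genes. The pericyte marker Cspg4, a proteoglycan, read 5.81, 5.61 and 6.31 in E2 OOX, against 6.81, 7.49 and 6.97 in OOX, a difference of -1.18 ± 0.244 (limma adjusted p = 0.0103). Cspg4 was not called there without E2 OOX replicate 1 (limma adjusted p = 0.0529) or with the source name followed (limma adjusted p = 0.739). Nor was it called with the array series as a term (limma adjusted p = 0.0575) or in a fit of the 2 groups alone (limma adjusted p = 0.114). It read 6.47, 6.35 and 5.74 in estrogen cocultures, against 9.50, 8.88 and 9.19 in cocultures, and 6.14, 5.94 and 6.51 in E2 COC, against 9.60, 9.19 and 9.28 in COC. Cspg4 was thus high with Tagln in cocultures and COC. It was the 1 gene of its list of 9 called in OOX against COC (-2.27 ± 0.244; limma adjusted p = 4.24e-06), where 25.8% of all genes were called. Pdgfrb was the 1 gene of that list called in E2 OOX against E2 COC, where 19.5% of all genes were called. It fell there while Acta2 rose (-1.97 ± 0.514; limma adjusted p = 0.0131). Pdgfrb was not called without E2 OOX replicate 1 or 2 (limma adjusted p = 0.0682 and 0.0694) or with the source name followed (limma adjusted p = 0.244). The stroma gene Dcn rose in OOX by 4.48 ± 0.231 (limma adjusted p = 1.62e-09) and in E2 OOX by 3.39 ± 0.231 (limma adjusted p = 4.6e-08), with Cnn2 and Tmsb4x. In the theca and stroma list 1 of 11 rose and 2 fell in OOX, and 3 rose in E2 OOX, where 25.8% and 19.5% of all genes were called. The genes that fell in OOX were the hedgehog pathway genes Gli1 (-1.68 ± 0.169; limma adjusted p = 1.99e-06) and Ptch1 (-1.22 ± 0.169; limma adjusted p = 5.81e-05). Ptch1 had the signs of Acta2: it rose in E2 OOX against E2 COC (1.02 ± 0.169; limma adjusted p = 0.000419) and in cocultures against OOX (1.52 ± 0.169; limma adjusted p = 8.06e-06). Its estrogen differences were 0.73 in oocyte-free complexes, -1.35 in cocultures and -1.52 in intact complexes (limma adjusted p = 0.0202, 0.000206 and 6.23e-05). The first of these Ptch1 calls was lost with the source name followed (0.55; limma adjusted p = 0.718), with the series term (limma adjusted p = 0.155) and without E2 OOX replicate 1 or OOX replicate 2 (limma adjusted p = 0.0743 and 0.0731). Gli1 fell with estrogen in cocultures (-1.99 ± 0.169; limma adjusted p = 4.38e-06) and intact complexes (-1.88 ± 0.169; limma adjusted p = 6.27e-06). The part of such cells in the results was not tested. Of 9 endothelial and blood cell markers 7, and of 6 surface epithelium markers all 6, lay below the array median on every array.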

How the data were processed

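RNA of 18 cumulus cell samples, 20 ng each and amplified, was hybridised to Affymetrix mouse arrays, per the labels' protocols. The authors deposited log2 values. The submitters' processing notes name RMA and Affymetrix Expression Console 1.1. RMA summarises the probes of a set and equalises the distributions of arrays, so a change shared by all transcripts cannot be seen.

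Of 45101 probe sets, 64 controls, 932 with several symbols and 9160 with none listed were left out, and symbols were updated by Entrez ID for 34741 of the remaining 34945. The values of all 34945 were fitted with limma 3.58.1 in R 4.3.3 (6 group means, 18 arrays, no filter on low values), and probe sets were called at a Benjamini-Hochberg adjusted p under 0.05 over all of them. The fit was tested on simulated data. Genes of the pathway and marker lists were each counted by their brightest probe set. The genes named are every probe set of the 10 genes, up to 3 genes per list and comparison with the largest change among those called without overlap, and the 3 nearest genes by correlation to each of Acta2, Tagln and Tmsb4x. Of 123 listed genes, 118 had a probe set. The counts of 1 list are not reported here. Groups follow the sample titles. The members and lists were chosen with earlier results of these data known. Alternatives were fits on 2 groups, filters, variance models, array weights, normalizations, array series, a replicate block, the other label of 1 array and leaving out each array. With 3 arrays per group, their number limits the precision.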

Additional observations from a re-analysis of the deposited data

Results flagged for a closer look

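These differences stood out because the groups did not overlap in either of the comparisons set against each other, and the comparisons had opposite signs. None was tested, since all are built from the estrogen contrasts whose signs the rule used. The estrogen difference in oocyte-free complexes exceeded that in intact complexes by 4.88 for Acta2, 2.22 for Tpm1 1423049_a_at, 1.32 for Tpm2 1425028_a_at, 1.77 for Cnn2 and 2.03 for Filip1l, on the log2 scale. It exceeded that in cocultures by 4.13 for Acta2, 2.04 for Tpm1 1423049_a_at, 1.37 for Tpm2 1425028_a_at and 3.55 for Filip1l.

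The oocyte removal difference without estrogen minus that with estrogen was -4.88 for Acta2, -2.15 for Myl9, -1.32 for Tpm2 1425028_a_at and -1.53 for Tagln. For added oocytes the same subtraction gave 4.13 for Acta2, 2.31 for Myl9, 1.18 for Tpm2 1419738_a_at and 1.37 for Tpm2 1425028_a_at. Where a gene appears in both paragraphs with the same size, it is one quantity written from either side.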

How the results depend on the processing

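No direction of a called difference reversed. Of the values of the 18 probe sets under the alternatives, the oocyte comparisons gave 2814 that kept direction and side of the threshold, 57 that lost a call, 22 that gained one and 101 that moved, and the estrogen differences gave 1479 within the spread between replicates and 18 that moved. Called probe sets in added oocytes without estrogen numbered 6601, and 3998 in a fit of the 2 groups alone, with 2 of the 18 higher. Under the filter on low values 1 probe set was called between estrogen cocultures and E2 COC, and fewer of the 18 stayed in: estrogen differences below 0 numbered 3 in oocyte-free complexes, 11 in intact complexes and 11 in cocultures, with 0 above 0 there. With 1 probe set per gene and the filter, which tests fewer features, the calls were 4744 and 3703 for removal without and with estrogen and 4064 and 3012 for addition, with 3 of the genes lower in the first and 3 higher in the third. The same setting called 1 probe set, Filip1l, between cocultures and COC (1 higher), and left 5 estrogen differences above and 3 below 0 in oocyte-free complexes, 8 below in intact complexes and 8 below and 0 above in cocultures. Array weights gave 6938 calls for addition with estrogen, against 4610, and 7 and 20 between cocultures and intact complexes without and with estrogen (1 of the 18 without estrogen). A second quantile normalization called 1 between cocultures and COC, Filip1l, and left 2 estrogen differences above 0 in cocultures, and centring called 1 between estrogen cocultures and E2 COC. No rescaling moved the median of all probe sets by over 0.1. With the array series as a term, removal without estrogen gave 4488 calls, against 7985, with 0 of the 18 lower; addition without estrogen raised 1, and cocultures against intact complexes gave 1 without estrogen, Filip1l, and 1 with it. In series 1 alone these gave 1, Filip1l, and 2. With the source name followed, removal without estrogen lowered 3 of the 18 and addition with estrogen lowered 5. The causes were not tested.

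Over all groups, 15 of 45 correlations between the deviations of same-numbered arrays were over 0.1 (range -0.363 to 0.379). All 3 were over 0.1 between E2 COC and estrogen cocultures (0.187, 0.338 and 0.291), the only compared groups where this held, and 2 pairs of groups that were not compared also met it. A fit with the replicate block called 3 probe sets between estrogen cocultures and E2 COC, none of the 18, and moved no other count of calls past 1.5 times. Leaving out each array gave 6385 to 8336 calls for removal without estrogen (3 of the 18 higher, 2 to 5 lower) and 4377 to 6937 with it (10 higher, 0 lower). It gave 4771 to 6938 for addition without estrogen (2 to 7 higher, 2 lower) and 3183 to 5629 with it (0 higher, 9 to 10 lower). Cocultures against intact complexes gave 0 to 4 without estrogen (0 to 1 of the 18 higher, 0 lower) and 0 to 1 with it (0 of the 18). Estrogen differences above and below 0 ran over 10 to 13 and 5 to 8 in oocyte-free complexes, 0 to 1 and 17 to 18 in intact complexes and 1 to 2 and 16 to 17 in cocultures.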
